A study of Mus with 96 samples.

Results

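The livers described here are the 24 that carried both labels, Hep-Bmal1KO and cdHFD, out of 96 in the series, with 4 mice at each of ZT 2, 6, 10, 14, 18, and 22 (ZT 0 is lights on in a 12-hour light and 12-hour dark cycle). They were chosen by their labels alone, and the question asked of them is which transcripts still changed with the time of day when the hepatocyte clock had been deleted and the diet had been changed, with what amplitude and at what time of peak. By their labels, they were from 2 males and 2 females at each ZT. The methods of the study describe Hep-Bmal1KO mice as AlbCre/+ Bmal1flx/flx on a C57BL/6J background. They give an age of 8 to 10 weeks, without saying whether at sampling. The mice had free access to a choline-deficient high-fat diet (cdHFD) for 2 weeks, with 60% fat, 2% cholesterol, 9% protein, 31% carbohydrate, and 0.17% methionine. The albumin promoter drives Cre in hepatocytes, so endothelial cells, macrophages, and the other non-parenchymal cells of these livers kept an intact Bmal1 gene, and whole liver RNA holds both kinds of cell. The comparison group, used only where it is named, was the 24 livers labelled Hep-Bmal1KO from mice on normal chow (NC). No genotypes were compared.

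BMAL1 (listed as Arntl) pairs with CLOCK or NPAS2 and switches on genes that carry E-boxes, among them the Per and Cry genes, whose products inhibit BMAL1:CLOCK, and Nr1d1 and Nr1d2, whose products (REV-ERBα and REV-ERBβ) repress Arntl and Nfil3. DBP, TEF, and HLF are PAR-bZIP activators that pass the rhythm on to enzymes and transporters, and NFIL3 represses through the same sites. A liver also receives daily cues from outside: feeding, body temperature, glucocorticoids, growth hormone, and the autonomic nerves can drive transcripts that need no clock in the hepatocyte.

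RNA was read from its 3′ end by BRB-seq, in which each sample carries a barcode, and the deposited values are raw counts per gene. The 24 libraries held 4243905 to 9718615 (median 7637271) counts on genes. Levels are in CPM, that is, counts brought to 1 library size by TMM scaling, which serve to compare 1 gene between libraries and not 1 gene with another. A gene was called rhythmic where a 24-hour cosine wave, fitted by edgeR's quasi-likelihood method, gave an adjusted p under 0.05 across the 15548 genes tested. Amplitude is the distance from the mean to the peak of the fitted cosine on the log2 scale of variance-stabilized values, and amplitude and peak time are followed by their standard errors. A mean CPM at a ZT is followed by its SD over the 4 libraries.

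Some properties of the libraries bear on what follows. The library labelled Hep-Bmal1KO at ZT 14, male replicate 1, went against its label: on a line from 0 (the other livers labelled Hep-Bmal1WT on cdHFD at that ZT) to 1 (those labelled Hep-Bmal1KO), it stood at -0.10 over 10 clock genes and at -0.23 over 20 other genes, while the other 23 libraries stood between 0.56 and 1.88 and between 0.43 and 1.37. The library labelled Hep-Bmal1KO at ZT 18, male replicate 1, and the one labelled female replicate 3 held RNA of exocrine pancreas, with summed Cpa1, Prss2, and Pnlip of 273 and 72.2 CPM against 0 to 1.35 CPM in the other 22. Time of day was also bound to the handling: the mouse numbers of the 6 ZTs fell in separate ranges, and each column of the library plate held a pair of neighbouring ZTs (2 and 6, 10 and 14, 18 and 22), so a cohort of mice and a time of day cannot be told apart. The 3′ tag of Arntl lies outside the deleted exon, so its level checks nothing. Among hepatocyte markers, Alb, Ttr, Apoa1, and the others summed to between 67500 and 116000 CPM over the 9 of 10 that were measured. Nothing in the labels ties 2 libraries to 1 mouse. The p-values of comparisons between neighbouring ZTs rest on the spread between the 4 mice of a time, pooled over all 6 ZTs in 1 fit. Those of the cosine fits rest on the scatter of the libraries around the fitted curve, which also holds any misfit of the curve.

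A daily rhythm was left in 596 of 15548 genes (3.83%), and in 325 (2.09%) without the 3 libraries named above, of which 303 were shared. Genes named below as rhythmic were called without these libraries as well unless it is said otherwise. In each of the 24 fits that left out a single library, 285 of the 596 were called. The rhythms were shallow for the most part: the median amplitude of the called genes was 0.36, a peak 1.65-fold above the trough, against 0.13 over all genes tested, and 124 genes reached an amplitude of 0.5 and 10 an amplitude of 1. Fewer cells of a type and less RNA per cell cannot be told apart in whole liver, here and below. With a straight line over the 6 ZTs in the model, 515 genes were called, 367 of them shared. With the plate column in the model, where only differences within a column carry the rhythm, 830 genes were called, of which 140 were shared. Of the 82 genes called and named by rule, 42 were not called in that model.

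Peaks were spread over the whole day. The 4 hours around ZT 10 held the most, 142 genes or 23.8% of the called, and the 4 hours around ZT 6 the fewest, 54 or 9.06%. In between stood the bins around ZT 2 with 110, ZT 14 with 110, ZT 22 with 91, and ZT 18 with 89. Of all genes tested, whether called or not, 20.8% had their fitted peak around ZT 10 and 14.9% around ZT 6. Of the 325 genes called without the 3 libraries, 95 or 29.2% stood in the bin around ZT 10 and 35 in that around ZT 18. Ordered by p, the leading genes were Cirbp, a cold-inducible RNA-binding protein, and Amdhd1, an enzyme of histidine breakdown, in the bin around ZT 2, Dbp and Nr1d1 around ZT 6, Coq10b and Usp2 around ZT 10, and the methyltransferase Nnmt and the lipase Abhd6 around ZT 14. Around ZT 18 the leading genes were pancreatic, and around ZT 22 they were the depalmitoylase Abhd17c and the linker histone H1f2.

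**Figure D1:**
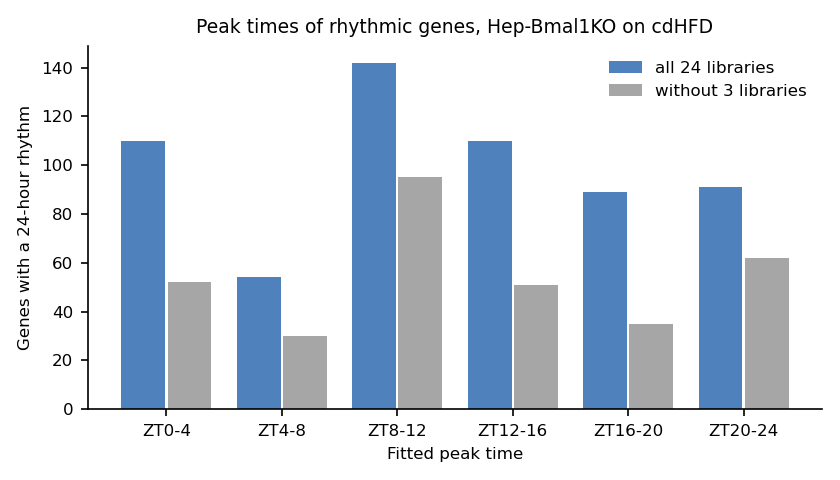
Number of genes with a 24-hour rhythm (adjusted p under 0.05) by fitted peak time in 4-hour bins, from all 24 libraries (596 genes, blue) and without the library against its label and the 2 with pancreatic RNA (325 genes, grey), both placed by their peak in the fit to all libraries. The bin from ZT 8 to ZT 12 is the highest in both, with 142 and 95 genes.

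Most core clock genes still had a daily rhythm. Nr1d1, Nr1d2, Ciart, the Per genes, Dbp, and Tef peaked in the light phase, and Arntl, Cry1, and Nfil3 in the dark phase. Of the 19 core clock genes measured, 12 were called (63.2%, beside 3.83% of all genes). The median amplitude was 0.56 over the list beside 0.13 over all genes. Without the 3 libraries 12 were called as well, when Npas2 joined and 1 member was lost. All 12 were called in each of the 24 fits that left out a library. With the straight line 10 members were called, and with the plate column 11, but not Per1 (adjusted p = 0.24). Nr1d1 (ENSMUSG00000020889, chromosome 11, 98767932 to 98775377 in GRCm38.p6) encodes REV-ERBα, and its counts gave 11.6, 18.1, 18, and 13.3 CPM at ZT 2, 13.7, 17.1, 14, and 9.63 at ZT 6, 23.2, 11.9, 10.2, and 6.68 at ZT 10, 4.45, 4.68, 4.05, and 4.71 at ZT 14, 1.72, 0.973, 1.34, and 1.93 at ZT 18, and 2.1, 3.11, 2.7, and 2.66 at ZT 22. The values at ZT 2, 6, and 10 all lay above those at ZT 14, 18, and 22, and the fit gave an amplitude of 1.14 ± 0.11 with a peak at ZT 6.2 ± 0.4 h (adjusted p = 9e-07), a 4.84-fold span. Ciart, a repressor of BMAL1:CLOCK, peaked at ZT 7 ± 0.5 h (amplitude 0.75 ± 0.09, adjusted p = 0.00014) from a low level, between 0.188 CPM at ZT 18 and 3.08 CPM at ZT 10. Nr1d2 followed at ZT 7.8 ± 0.5 h with an amplitude of 0.76 ± 0.09 (adjusted p = 1.2e-05), falling from 31.1 ± 4.02 CPM at ZT 10 to 10.1 ± 1.33 CPM at ZT 18.

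The PAR-bZIP activators came next. Dbp (ENSMUSG00000059824, chromosome 7, 45705100 to 45710203 in GRCm38.p6) had the smallest p of all genes tested, with 19.6, 23.2, 37.6, and 12.9 CPM at ZT 2, 27, 57.6, 71.8, and 63.2 at ZT 6, 65.8, 66.3, 66.4, and 70.6 at ZT 10, 20.3, 15.2, 13.6, and 15.1 at ZT 14, 17.7, 11.2, 9.28, and 9.65 at ZT 18, and 8.41, 8.44, 11.9, and 6.82 at ZT 22. Every library at ZT 6 and ZT 10 stood above every library at ZT 14, 18, and 22, and the amplitude was 1.30 ± 0.13 with a peak at ZT 8 ± 0.4 h (adjusted p = 5.6e-08), a 6.04-fold span. Without the 3 libraries the amplitude of Dbp was 1.38 ± 0.14 at ZT 7.8 ± 0.4 h (adjusted p = 7.2e-08) and that of Nr1d1 1.13 ± 0.14 at ZT 6.1 ± 0.4 h (adjusted p = 6.9e-05). Tef rose from 21 ± 3.95 CPM at ZT 22 to 53.5 ± 1.27 CPM at ZT 10 (amplitude 0.62 ± 0.08, peak ZT 9.3 ± 0.5 h, adjusted p = 1.2e-05). Hlf, the third of this family, did not pass the test (amplitude 0.30 ± 0.10, peak ZT 9.7 ± 1.3 h, adjusted p = 0.11).

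The Per genes peaked around the end of the light phase, in the order Per3, Per1, Per2. For Per3 the libraries gave 5.32, 2.21, 2.55, and 1.64 CPM at ZT 2, 3.46, 4.38, 11.6, and 6.6 at ZT 6, 9.45, 9.93, 10.3, and 15.2 at ZT 10, 3.98, 6.85, 2.94, and 0.975 at ZT 14, 1.72, 2.92, 0.941, and 2.21 at ZT 18, and 0.946, 0.666, 0.613, and 0.809 at ZT 22. Its lowest group, ZT 22, did not overlap with ZT 10, and the amplitude was 0.94 ± 0.13 with a peak at ZT 9 ± 0.5 h (adjusted p = 1.3e-05). Per1, which also answers to glucocorticoids and cyclic AMP, reached 19.9 ± 5.51 CPM at ZT 10 and was at 6.05 ± 2.14 CPM at ZT 22 (amplitude 0.66 ± 0.14, peak ZT 10.1 ± 0.8 h, adjusted p = 0.002). Per2 peaked latest, at ZT 11.1 ± 0.6 h, with an amplitude of 0.60 ± 0.09 (adjusted p = 0.00027) and 19.2 CPM at ZT 10 against 6.21 CPM at ZT 22. The peak times of Per3 and Per1, and of Per1 and Per2, lay about 1 hour apart, which is within their summed standard errors.

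The genes that REV-ERB represses ran opposite. Arntl (ENSMUSG00000055116, chromosome 7, 113178471 to 113314126 in GRCm38.p6) was low at ZT 10 in all 4 livers, with 5.88, 6.02, 4.59, and 8.57 CPM at ZT 2, 6.65, 4.51, 4.09, and 4.68 at ZT 6, 2.59, 2.26, 3.14, and 3.83 at ZT 10, 10.9, 6.68, 10.1, and 10.1 at ZT 14, 9.48, 12.7, 6.99, and 14.9 at ZT 18, and 8.72, 7.55, 9.07, and 11.7 at ZT 22. The ZT 10 values lay below every value at the other 5 times, and the amplitude was 0.56 ± 0.09 with a peak at ZT 19.3 ± 0.6 h (adjusted p = 0.00094). Within the plate column that held ZT 10 and ZT 14, 5 of the 19 genes rose between these times, Arntl, Cry1, Cry2, and Nfil3 among them, and Dbp, Nr1d1, Nr1d2, Per3, and Ciart fell. What is read here of Arntl is the 3′ end of a transcript whose deleted exon lies elsewhere, from hepatocytes and from the cells that kept the gene. Nfil3 peaked at ZT 18.6 ± 0.7 h (amplitude 0.67 ± 0.12, adjusted p = 0.0012) and rose from 8.77 ± 2.82 CPM at ZT 10 to 27.5 ± 4.05 CPM at ZT 14. Cry1 peaked at ZT 17.6 ± 0.8 h (amplitude 0.48 ± 0.09, adjusted p = 0.0055), with 17.3 CPM at ZT 10 and 38.9 CPM at ZT 14. Npas2 had an adjusted p of 0.073 in all libraries, and 0.046 without the 3 libraries, with a peak at ZT 21.2 ± 1 h and an amplitude of 0.45 ± 0.11. The library against its label held 0.703 CPM of Npas2, and the other 3 at ZT 14 held 11.4, 9.51, and 14.1 CPM.

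Some clock genes gave no daily rhythm that passed the test. The means of Clock at the 6 times lay between 18.7 and 24.7 CPM (amplitude 0.12 ± 0.06, adjusted p = 0.46), Cry2 had an amplitude of 0.07 ± 0.08 (adjusted p = 0.84), and Rora one of 0.16 ± 0.06 (adjusted p = 0.24). Bhlhe40 had 0.24 ± 0.08 (adjusted p = 0.15), and Bhlhe41 was low, at a mean of 0.764 CPM (adjusted p = 0.96).

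**Figure D2:**
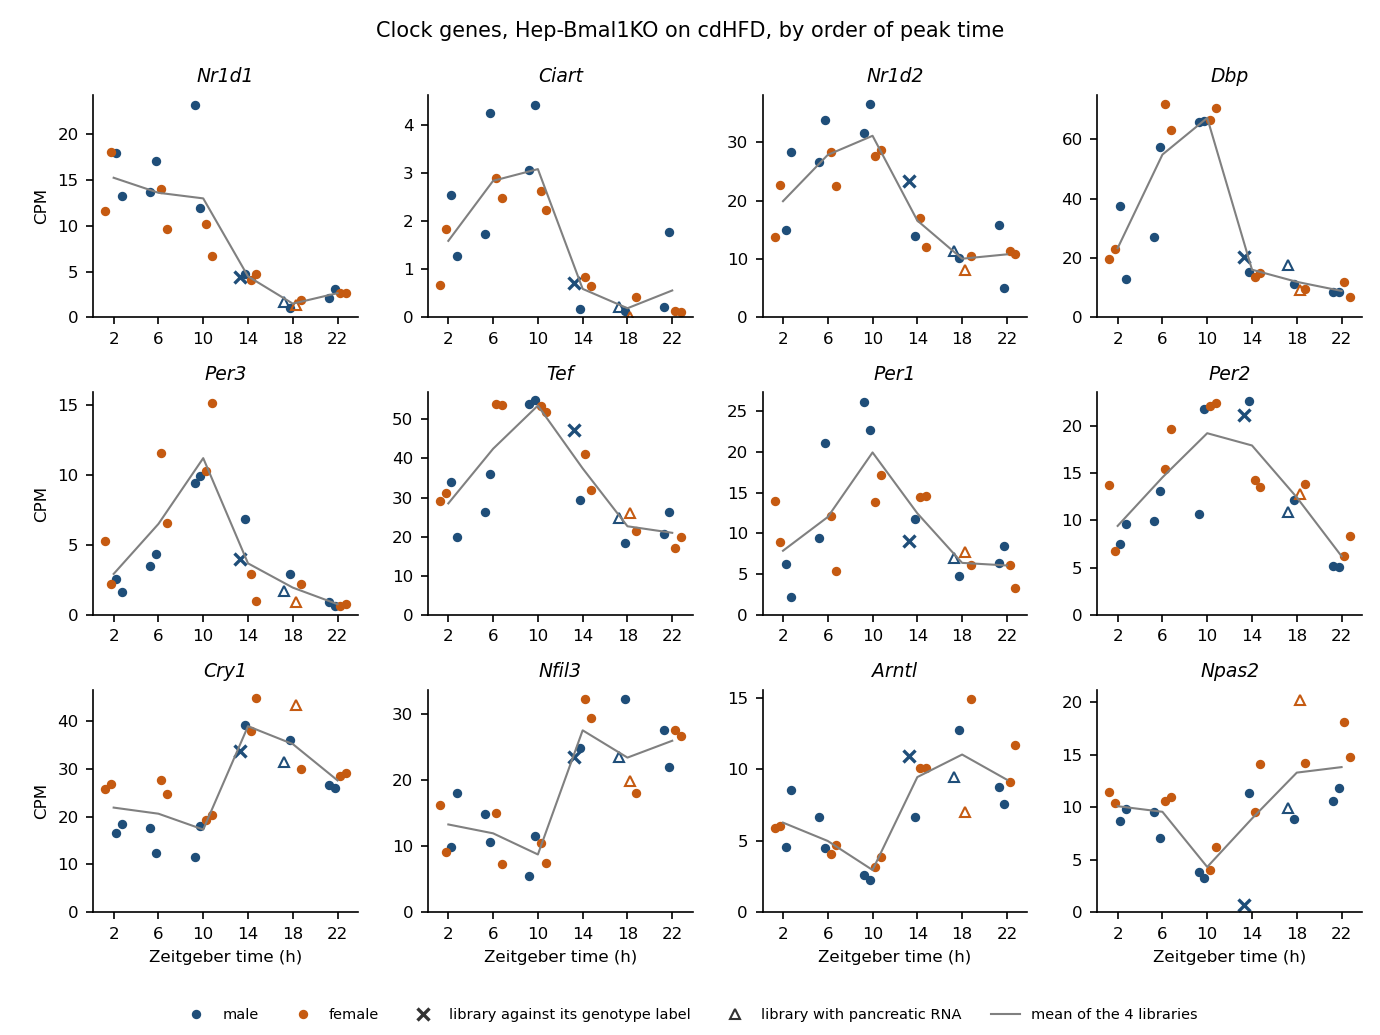
CPM of 12 clock genes by Zeitgeber time, 1 point a library (4 a ZT, males blue, females orange) with the mean as a line, in order of peak time from Nr1d1 to Npas2. Nr1d1 to Per2 are high at ZT 6 to ZT 10 and low at ZT 18 to ZT 22, Cry1, Nfil3, and Arntl are lowest at ZT 10, and the cross at ZT 14 marks the library against its label, which stands at 0.703 CPM for Npas2. Triangles mark the 2 libraries with pancreatic RNA.

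Known clock output genes of the liver were called in 9 of 17 measured (52.9%, beside 3.83% of all genes), with the same number without the 3 libraries and a median amplitude of 0.34. Usp2 (ENSMUSG00000032010, chromosome 9, 44067021 to 44095627 in GRCm38.p6), a deubiquitinase that is a classical PAR-bZIP and E-box target, gave 15, 13.6, 18.4, and 6.38 CPM at ZT 2, 14.4, 25.3, 58.6, and 36.7 at ZT 6, 32.8, 34.9, 50.3, and 66.1 at ZT 10, 39.7, 34.1, 42.4, and 25.3 at ZT 14, 21, 17.2, 10.8, and 10.7 at ZT 18, and 6.93, 15.1, 7.72, and 10.5 at ZT 22. Its values at ZT 10 stood above all at ZT 2, 18, and 22, with an amplitude of 1.01 ± 0.13 with a peak at ZT 10.4 ± 0.5 h (adjusted p = 1.2e-05). Upp2, a uridine phosphorylase, rose from 11 ± 1.21 CPM at ZT 22 to 44.7 ± 14.8 CPM at ZT 10 (amplitude 0.82 ± 0.12, peak ZT 9.5 ± 0.5 h, adjusted p = 0.00011). Noct, a phosphatase of NADP cofactors, peaked at ZT 10.9 ± 0.6 h (amplitude 0.71 ± 0.12, adjusted p = 0.00023), and Tspan4, Nampt, Por, Alas1, and Gys2 peaked between ZT 8.8 and ZT 12.1 with amplitudes of 0.34 to 0.46.

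Insig2, which retains the SREBP precursor in the endoplasmic reticulum, ran opposite to these and is known as a target of REV-ERB. Its libraries gave 315, 361, 343, and 378 CPM at ZT 2, 344, 302, 337, and 221 at ZT 6, 156, 147, 189, and 171 at ZT 10, 182, 268, 350, and 302 at ZT 14, 311, 342, 423, and 492 at ZT 18, and 435, 434, 458, and 420 at ZT 22. The 4 livers at ZT 10 lay below all others except the library against its label at ZT 14 (182 CPM), and the amplitude was 0.58 ± 0.09 with a peak at ZT 22 ± 0.6 h (adjusted p = 0.00033). With the plate column in the model 5 members of the list were called, and Upp2 (adjusted p = 0.17), Noct (0.11), Gys2 (0.47), and Insig2 (0.055) were not. Wee1, Slc45a3, Lonrf3, Tsku, Rgs16, Cdkn1a, Leap2, and Elovl3 were the 8 measured members that were not called.

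Among the genes with the smallest p were some that stand outside these lists. Coq10b (ENSMUSG00000025981, chromosome 1, 55052770 to 55072702 in GRCm38.p6), a lipid-binding protein of the mitochondrial coenzyme Q pathway, gave 24.5, 22.1, 15.6, and 15.7 CPM at ZT 2, 17.8, 22.4, 24.5, and 27.1 at ZT 6, 45.3, 46.8, 33.9, and 46.6 at ZT 10, 33.4, 28.6, 30.8, and 26.6 at ZT 14, 18.4, 17.2, 17.8, and 16.7 at ZT 18, and 14.4, 12, 11.6, and 16.4 at ZT 22. Every library at ZT 10 stood above every library at the other times, and the amplitude was 0.65 ± 0.07 with a peak at ZT 10.4 ± 0.4 h (adjusted p = 3.7e-06), which did not pass with the plate column in the model (adjusted p = 0.1). Nrg4, a secreted ligand of ERBB4, rose from 2.35 ± 1.24 CPM at ZT 22 to 15.5 ± 4.47 CPM at ZT 14 (amplitude 1.02 ± 0.13, peak ZT 11 ± 0.5 h, adjusted p = 1.2e-05). Amdhd1 ran from 79.4 ± 6.4 CPM at ZT 10 to 163 ± 16.7 CPM at ZT 22 (amplitude 0.49 ± 0.06, peak ZT 0.1 ± 0.5 h, adjusted p = 7e-05).

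Temperature-responsive transcripts were called in 13 of 21 measured members of the heat shock and cold-inducible list (61.9%, beside 3.83% of all genes). The list had a median amplitude of 0.37, and 9 members were called without the 3 libraries. The chaperones peaked from late in the light phase into the dark phase, between ZT 10.8 (Hspa8) and ZT 16.4 (Hspb1). Hspb1, a small heat shock protein, gave 42.5, 51.3, 40.3, and 73.8 CPM at ZT 2, 52.5, 66.4, 47.7, and 33.6 at ZT 6, 46.6, 45.9, 56.7, and 64.8 at ZT 10, 185, 141, 181, and 101 at ZT 14, 73, 82.1, 113, and 194 at ZT 18, and 82.7, 77.7, 60.4, and 79.4 at ZT 22. Its values at ZT 14 lay above all values at ZT 2, 6, 10, and 22, and the amplitude was 0.75 ± 0.13 with a peak at ZT 16.4 ± 0.6 h (adjusted p = 0.00017). Hspa4l (peak ZT 15.3 ± 0.6 h, adjusted p = 0.0014), the cochaperone Stip1 (peak ZT 14.8 ± 0.6 h, adjusted p = 0.0018), Hsph1, Hsp90aa1, Hsp90ab1, Hspa1b, Dnajb1, Chordc1, and Ahsa1 were the other chaperones and cochaperones called. Of these, Hsp90aa1, Hsp90ab1, Hspa1b, and Ahsa1 were not called without the 3 libraries.

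Cirbp, which is induced by cold, peaked outside that range and gave 17.9, 12, 43.2, and 16 CPM at ZT 2, 15.8, 20.1, 12.8, and 9.91 at ZT 6, 5.94, 8.13, 8.78, and 4.7 at ZT 10, 3.63, 5.51, 2.24, and 2.6 at ZT 14, 6.57, 3.04, 5.24, and 8.54 at ZT 18, and 11.7, 16.2, 9.43, and 4.51 at ZT 22. The ZT 2 values lay above all at ZT 14 and ZT 18, the spread at ZT 2 was wide, and the amplitude was 0.89 ± 0.13 with a peak at ZT 2.8 ± 0.6 h (adjusted p = 4e-05). With the plate column in the model 7 members of the list were called, Hspb1 among them (adjusted p = 0.011), and Cirbp was not (adjusted p = 0.086). Rbm3, the closest relative of Cirbp, did not pass the test over the day (adjusted p = 0.12), although it rose from 25.8 ± 7.69 CPM at ZT 22 to 68.1 ± 25.1 CPM at ZT 2 in the test of neighbouring times (adjusted p = 0.0033).

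Glucocorticoid-responsive genes were called in 6 of 21 measured (28.6%, beside 3.83% of all genes), and in 4 without the 3 libraries. All 6 fitted peaks lay in the light phase, but the means of Fkbp5, Tsc22d3, and Dusp1 were highest at ZT 14, in the dark phase. The list had a median amplitude of 0.25. Mt1, a metallothionein, peaked earliest, at ZT 5 ± 0.8 h (amplitude 0.85 ± 0.17, adjusted p = 0.002), with 570 ± 214 CPM at ZT 6 and 149 ± 25.9 CPM at ZT 18. Fkbp5, a cochaperone of the glucocorticoid receptor, moved from 29.5 ± 3.86 CPM at ZT 18 to 66.4 ± 13.6 CPM at ZT 14 (peak ZT 9 ± 0.7 h, adjusted p = 0.0036). Tsc22d3 (GILZ) had 1 sharp maximum, 181 ± 28.6 CPM at ZT 14, and its cosine fit gave an adjusted p of 0.024 with all libraries and 0.067 without the 3. Dusp1, Lcn2, and, with all libraries only, Nfkbia were also called, while Sgk1, Tat, Klf9, and 12 more were not. In all, 2 members were called with the plate column in the model, and Fkbp5 was not (adjusted p = 0.75). None of the 17 immediate early genes measured was called by edgeR, 1 had an unadjusted p under 0.05, and DESeq2 called 1. Fos had an adjusted p of 0.37.

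Carbohydrate genes were called in 4 of 22 measured members of the fasting and insulin list (18.2%, beside 3.83% of all genes). The list had a median amplitude of 0.32, and 3 members were called without the 3 libraries. G6pc, the phosphatase that releases glucose, gave 142, 90.7, 58, and 55 CPM at ZT 2, 107, 126, 99.1, and 94.7 at ZT 6, 65.4, 117, 72.5, and 89.9 at ZT 10, 276, 318, 384, and 538 at ZT 14, 294, 173, 197, and 98.8 at ZT 18, and 97.9, 113, 86.4, and 204 at ZT 22. The ZT 14 values lay above all values at ZT 2, 6, 10, and 22, and the amplitude was 0.84 ± 0.19 with a peak at ZT 15.6 ± 0.9 h (adjusted p = 0.002). Pck1, the first committed enzyme of gluconeogenesis, was near the threshold (2440 ± 1010 CPM at ZT 14, 1150 ± 269 CPM at ZT 22, adjusted p = 0.046) and was not called without the 3 libraries (adjusted p = 0.057). On the glycogen side, the liver glycogen synthase Gys2 peaked at ZT 11.6 ± 0.9 h (amplitude 0.43 ± 0.10, adjusted p = 0.0072) and the phosphatase subunit Ppp1r3g at ZT 11.9 ± 1.3 h (amplitude 0.89 ± 0.30, adjusted p = 0.016). Igfbp1, Irs2, and Pdk4 were measured and not called. G6pc was called with the plate column in the model (adjusted p = 0.013), and Pck1, Gys2, and Ppp1r3g were not (adjusted p = 0.77, 0.47, and 0.44).

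Genes of fat synthesis were called in 5 of 18 measured (27.8%, beside 3.83% of all genes), and in 4 without the 3 libraries. The median amplitude of the list was 0.26, and the called genes peaked between ZT 11.7 and ZT 16. Thrsp (Spot 14), a regulator of fatty acid synthesis, gave 12.6, 14.7, 5.44, and 9.3 CPM at ZT 2, 7.85, 8.07, 30.3, and 28.3 at ZT 6, 5.94, 30.5, 31.9, and 124 at ZT 10, 333, 66, 28.7, and 9.59 at ZT 14, 14, 28.8, 4.84, and 12.5 at ZT 18, and 3.15, 3.77, 4.41, and 7.98 at ZT 22. The highest value came from the library against its label, the spread at ZT 10 and ZT 14 was wide, and the amplitude was 1.24 ± 0.33 with a peak at ZT 11.7 ± 1 h (adjusted p = 0.0014) with it and 1 ± 0.28 without the 3 libraries (adjusted p = 0.0089). Fasn, fatty acid synthase, had 53.2 ± 7.27 CPM at ZT 6 and 121 ± 52.7 CPM at ZT 10, and at ZT 14 466 CPM in the library against its label and 143, 103, and 53.3 CPM in the other 3 (amplitude 0.76 ± 0.19, peak ZT 14.4 ± 0.9 h, adjusted p = 0.0041). Acacb, which makes the malonyl-CoA that restrains fatty acid uptake into mitochondria, peaked at ZT 14.7 ± 0.6 h (adjusted p = 0.0018) and Acly, which supplies acetyl-CoA, at ZT 16 ± 0.9 h (adjusted p = 0.0093). Srebf1, Mlxipl, Acaca, and Scd1 were not called. With the plate column in the model 3 members were called, and Thrsp (adjusted p = 0.18) and Fasn (adjusted p = 0.28) were not.

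Of 30 measured oxidation and PPARα genes, 4 were called (13.3%, beside 3.83% of all genes), and 1 without the 3 libraries. This was Cpt1a, the gate for fatty acid entry into mitochondria, with 387 ± 31.5 CPM at ZT 6 and 244 ± 7.55 CPM at ZT 18 (amplitude 0.30 ± 0.06, peak ZT 6.5 ± 0.7 h, adjusted p = 0.0066). Plin2, a coat protein of lipid droplets, and Slc25a20, the carnitine carrier, were near the threshold (adjusted p = 0.049 and 0.044) and were called in 8 and 6 of the fits that left out a library. Of 27 measured genes of sterol synthesis and uptake, 5 were called (18.5%). Fdps, farnesyl diphosphate synthase, was the only member called without the 3 libraries as well. It had 19.7 ± 0.84 CPM at ZT 10 and 42 ± 16.3 CPM at ZT 14 (peak ZT 17 ± 1.2 h, adjusted p = 0.034 with all libraries). Insig1, which holds SREBP back when sterols are plentiful, had an adjusted p of 0.015 with all libraries and 0.078 without the 3. Of 20 bile acid genes 1 was called (5%, near the 3.83% of all genes). This was Abcg5, a sterol exporter (adjusted p = 0.047, 0.16 without the 3 libraries), and Nr0b2 (SHP) had an adjusted p of 0.053. Cpt1a, Fdps, and Insig1 were called with the plate column in the model (adjusted p = 0.021, 0.023, and 0.019), and Plin2, Slc25a20, and Abcg5 were not (adjusted p = 0.57, 0.2, and 0.28).

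Amino acid and xenobiotic genes were called in 5 of 32 and 4 of 29 measured (15.6% and 13.8%, beside 3.83% of all genes). Without the 3 libraries 3 and 2 were called, when Asl, Arg1, Ces1d, and Nqo1 were lost. Kynu, kynureninase of tryptophan breakdown, rose from 50.7 ± 6.46 CPM at ZT 10 to 97.9 ± 8.55 CPM at ZT 18 (amplitude 0.43 ± 0.06, peak ZT 18.6 ± 0.6 h, adjusted p = 5e-04). Slc25a15, the ornithine carrier of the urea cycle, peaked at ZT 16.1 ± 0.7 h (adjusted p = 0.0026), and Cbs, the first enzyme of transsulfuration, at ZT 21.6 ± 0.9 h (adjusted p = 0.025). Cyp2a5, a xenobiotic hydroxylase, had an amplitude of 1.12 ± 0.28 (peak ZT 10.7 ± 1 h, adjusted p = 0.011), and Gclc, which starts glutathione synthesis, peaked at ZT 23.4 ± 1 h (adjusted p = 0.018). Kynu and Gclc were called with the plate column in the model (adjusted p = 0.0079 and 0.042), and Cbs and Cyp2a5 were not (adjusted p = 0.062 and 0.48).

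Genes of DNA replication and mitosis were called in 12 of 30 measured (40%, beside 3.83% of all genes), and in 7 without the 3 libraries. The list had a median amplitude of 0.37. The fitted peaks of the called genes ran from ZT 10.1 to ZT 19.3. Mcm6 peaked at ZT 10.1 ± 0.9 h, Mcm3 at ZT 10.5 ± 0.8 h, the S-phase activator E2f1 at ZT 12.5 ± 0.8 h, and the ribonucleotide reductase subunit Rrm2 at ZT 13.3 ± 1 h, and Ccnb1 and Cdc20, of mitosis, peaked at ZT 18.5 and ZT 19.3. Rrm2 had 18.6 ± 3.14 CPM at ZT 22, and at ZT 14 172 CPM in the library against its label and 49.6, 44.6, and 30.5 CPM in the other 3 (adjusted p = 0.0073, 0.043 without the 3 libraries). With the plate column in the model 1 member of the list was called. Which cells of the liver carried these transcripts was not tested.

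Acute phase proteins were called in 6 of 22 measured (27.3%, beside 3.83% of all genes), and in 4 without the 3 libraries. The called members split by time. Fga, Fgb, and Fgg, the chains of fibrinogen, peaked together at ZT 22.5 ± 0.7 h, ZT 23.2 ± 0.7 h, and ZT 23 ± 0.8 h, and Fga gave 1930, 1860, 2280, and 2250 CPM at ZT 2, 1900, 1660, 1610, and 1720 at ZT 6, 550, 1130, 1060, and 811 at ZT 10, 1410, 1630, 1960, and 1960 at ZT 14, 1570, 1850, 1930, and 1630 at ZT 18, and 2300, 2720, 2530, and 2080 at ZT 22. All 4 livers at ZT 10 lay below the other 20, and the amplitude was 0.54 ± 0.10 with a peak at ZT 22.5 ± 0.7 h (adjusted p = 0.0064). Lcn2 (lipocalin 2) peaked at the opposite time, ZT 10.2 ± 0.7 h, with 1570 ± 282 CPM at ZT 10 and 531 ± 176 CPM at ZT 22 (adjusted p = 0.0017), and Orm1 and Orm2, with all libraries only, peaked at ZT 11.3. Of 25 interferon-stimulated genes 6 were called (24%), with peaks from ZT 1.8 (Rsad2) to ZT 11.7 (Irf7). With the plate column in the model edgeR called 0 of them (adjusted p = 0.45 for Rsad2 and 0.32 for Irf7). Lcn2 was not called in that model either (adjusted p = 0.072), and Fga was (adjusted p = 0.03). Ribosome biogenesis (1 of 30), growth hormone signalling (1 of 11), the unfolded protein response (0 of 26), and fibrosis (0 of 25) had shares of 3.33%, 9.09%, 0%, and 0% called by edgeR beside 3.83% of all genes, and Mybbp1a and Socs2, the members called, were not called without the 3 libraries. For the unfolded protein response 10 members had an unadjusted p under 0.05 and DESeq2 called 2, and for fibrosis 6 and 0. With the plate column in the model edgeR called more: 9 of the 26 unfolded protein response genes and 9 of the 25 fibrosis genes. It also called 6 of the 30 ribosome biogenesis genes and 1 of the 11 growth hormone genes. In that model 830 of all 15548 genes tested were called.

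**Figure D3:**
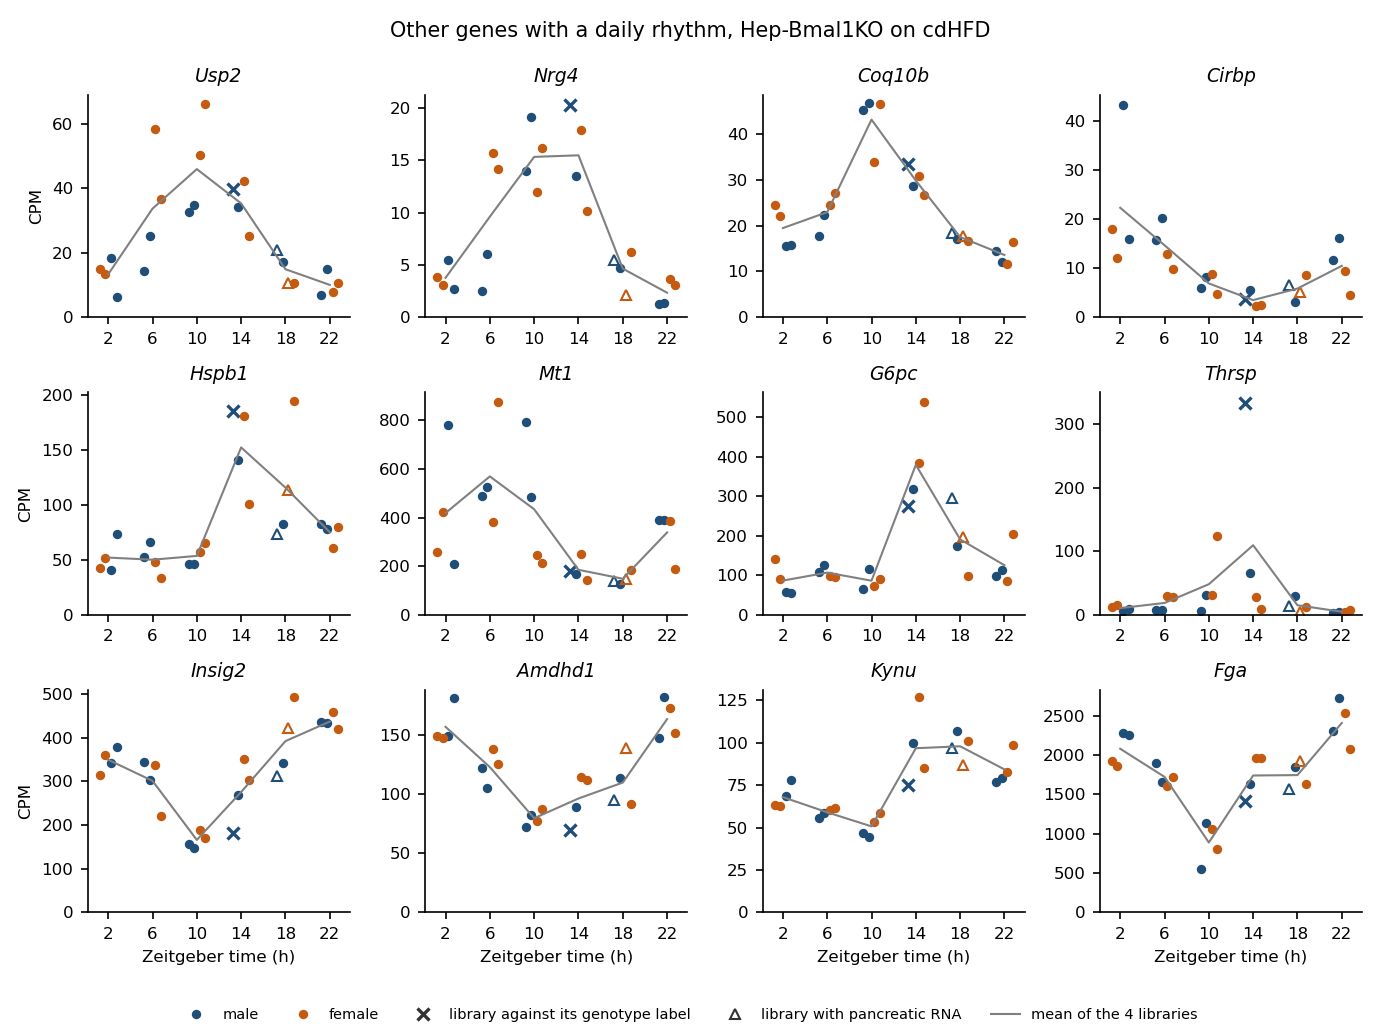
CPM of 12 rhythmic genes outside the core clock by Zeitgeber time, 1 point a library (males blue, females orange) with the mean of the 4 libraries as a line. Usp2, Nrg4, and Coq10b peak at ZT 10 to ZT 14, Hspb1 and G6pc are highest at ZT 14, and Insig2, Amdhd1, Kynu, and Fga are lowest at ZT 10. Crosses mark the library against its label, at 333 CPM for Thrsp, and triangles the 2 with pancreatic RNA.

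**Figure D4:**
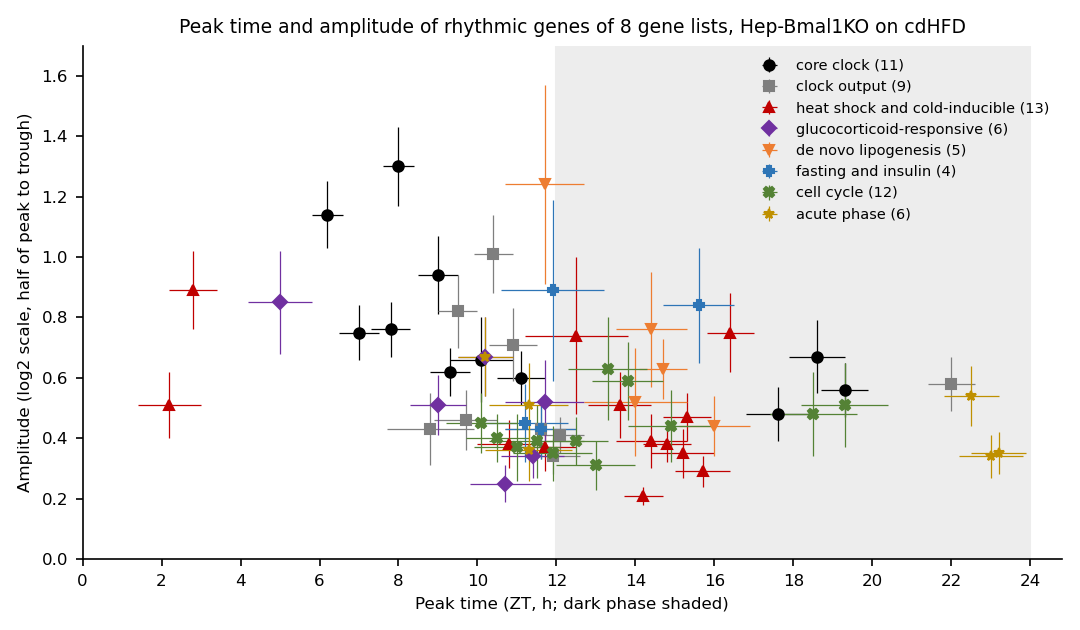
Fitted peak time (horizontal, hours) against amplitude (vertical, log2 scale) of the rhythmic members of 8 gene lists, with standard errors as bars. The number in brackets counts the genes drawn, 11 of the 12 called for the core clock. Clock genes stand between ZT 6.2 and ZT 11.1 and between ZT 17.6 and ZT 19.3, chaperones between ZT 10.8 and ZT 16.4, and the fibrinogen genes between ZT 22.5 and ZT 23.2.

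Of 63 markers of other liver cell types measured, 2 were called (3.17%), near the 3.83% of all genes tested. None of the 16 macrophage, 8 stellate cell, 6 cholangiocyte, 6 neutrophil, 8 T or NK cell, and 5 red blood cell markers measured was called by edgeR, and DESeq2 also called 0, with at most 1 of each list at an unadjusted p under 0.05. Of 8 endothelial markers Clec4g was called, with a summed level of the 8 of 206 to 257 CPM at ZT 10 and 249 to 386 CPM at the other times, and of 6 markers of B or plasma cells Ms4a1 was called, with all libraries only. Summed macrophage markers ranged from 2500 to 4980 CPM over the 24 libraries. The sum of cholangiocyte markers reached 309 to 935 CPM at ZT 10 and 85.7 to 563 CPM at the other times, and Dmbt1, a secreted epithelial glycoprotein had the largest amplitude of the called genes, 1.67 ± 0.58 with a peak at ZT 22.8 ± 1.3 h (adjusted p = 0.00037). It reached 222 and 88.5 CPM in 2 libraries at ZT 2 and 238 and 78.8 CPM in 2 at ZT 22, 33.6 and 8.47 CPM in the 2 with pancreatic RNA, and at most 1.84 CPM in the other 18.

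Pancreatic transcripts passed the test for rhythm through a pair of libraries at 1 time. Cpa1, a pancreatic carboxypeptidase, gave 0, 0.615, 0, and 0 CPM at ZT 2, 0.133, 0, 0, and 0 at ZT 6, 0, 0, 0, and 0 at ZT 10, 0, 0.167, 0, and 0 at ZT 14, 105, 0, 28.4, and 0.413 at ZT 18, and 0, 0, 0, and 0.578 at ZT 22. The 2 libraries at ZT 18 carried nearly all of it, and the test gave an adjusted p of 1.9e-05 with them and 0.39 without the 3 libraries. The same held for 2210010C04Rik, Zg16, and Sycn, which were among the 15 smallest p, and for Prss2. Of the 596 called genes, 21 had their 2 highest values in these 2 libraries, and 20 of the 21 were not called without them. Ctrb1, a chymotrypsinogen, was also above 1 CPM at ZT 2 and ZT 22 (2.14 and 6.77 CPM on average), in the same 4 libraries as Dmbt1, and was called without the pair. On NC, 2 of 4 livers labelled Hep-Bmal1KO at ZT 18 held pancreatic RNA as well, up to 642 CPM for the same 3 genes, and none at the other ZTs reached 1 CPM.

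A cosine can miss a change at a single time, so neighbouring ZTs were also compared, 4 livers against 4. Levels changed mostly into and out of ZT 10. From ZT 6 to ZT 10, 757 genes changed (4.87% of 15548), 266 up and 491 down, and from ZT 10 to ZT 14 2348 genes (15.1%), 1319 up and 1029 down. Both steps share the 4 libraries at ZT 10, and 576 of the 757 genes changed in the opposite direction from ZT 10 to ZT 14. The other steps had few calls by edgeR: 31 genes from ZT 14 to ZT 18 (0.199%), 9 from ZT 18 to ZT 22 (0.0579%), 17 from ZT 22 to ZT 2 (0.109%), and 0 from ZT 2 to ZT 6 (0%), where 1258 genes had an unadjusted p under 0.05 and DESeq2 called 11. Without the 3 libraries the counts were 628, 1646, 0, 0, 10, and 0, in the order from ZT 6 on. Without the male replicate 1 at ZT 10, which had the lowest total at that ZT, 261 and 1315 genes changed into and out of ZT 10, with 254 and 1280 of them shared.

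Of the genes with the smallest p in these steps, Tpm3, a tropomyosin, fell from 109 ± 12.1 CPM at ZT 6 to 39.8 ± 12.4 CPM at ZT 10 (adjusted p = 4.2e-05) and Crbn, cereblon, from 18.9 ± 3.28 CPM to 6.69 ± 0.99 CPM (adjusted p = 6e-05). Into ZT 14, Snx3, a sorting nexin, rose from 119 ± 20 CPM to 259 ± 21.3 CPM and Oaz1, antizyme of ornithine decarboxylase, from 108 ± 27 CPM to 280 ± 10.2 CPM (adjusted p = 8.2e-06 each). From ZT 22 to ZT 2, Nr1d1 rose 2.55 on the log2 scale (adjusted p = 4.3e-05), and from ZT 14 to ZT 18 Tsc22d3 fell by 1.23 (adjusted p = 0.0032, 0.11 without the 3 libraries) and Srsf5, a splicing factor, rose by 1.21 (adjusted p = 0.018, 0.15 without the 3 libraries). The genes that led the step from ZT 18 to ZT 22, Sycn and Prss2, were pancreatic.

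The step from ZT 10 to ZT 14, in which 8.48% of all genes tested rose and 6.62% fell, was also read list by list. Of 26 genes of the unfolded protein response, 12 rose and 0 fell, Hspa5, Sdf2l1, and Dnajb9 among them, with 52.2 ± 18.4 CPM for Dnajb9 at ZT 10 and 116 ± 17.1 CPM at ZT 14. Of 25 fibrosis genes, 12 fell and 0 rose, with 181 ± 73.5 CPM for Col1a1 at ZT 10 and 63.7 ± 36.4 CPM at ZT 14, and 3 fell without the male replicate 1 at ZT 10. Amino acid genes rose in 10 of 32, sterol genes in 8 of 27 (5 without the male replicate 1 at ZT 10 and 4 without the 3 libraries), and ribosome biogenesis genes fell in 11 of 30. Of 21 heat shock and cold-inducible genes, 13 rose and 2 fell, with a median log2 change of 0.58. In this list 10 rose without the 3 libraries and 8 without the male replicate 1 at ZT 10. Of 17 immediate early genes 0 rose and 1 fell, and of 11 growth hormone genes 2 rose and 2 fell. The median log2 change was 0.45 for the unfolded protein response, -0.62 for fibrosis, 0.46 for amino acid genes, 0.50 for sterol genes, and -0.37 for ribosome biogenesis, beside -0.05 over all genes tested. Without the male replicate 1 at ZT 10, the unfolded protein response had 8 that rose and ribosome biogenesis 8 that fell. In that fit 792 of all 15548 genes tested rose and 523 fell, and without the 3 libraries 1007 rose and 639 fell. The male replicate 1 at ZT 10 also had the highest summed markers of stellate cells (457 CPM) and cholangiocytes (935 CPM). Reads that fell on no gene made up 8.90 to 11.3% of all reads at ZT 10 and 7.10 to 8.86% at the other ZTs, and their part in the steps was not tested.

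**Figure D5:**
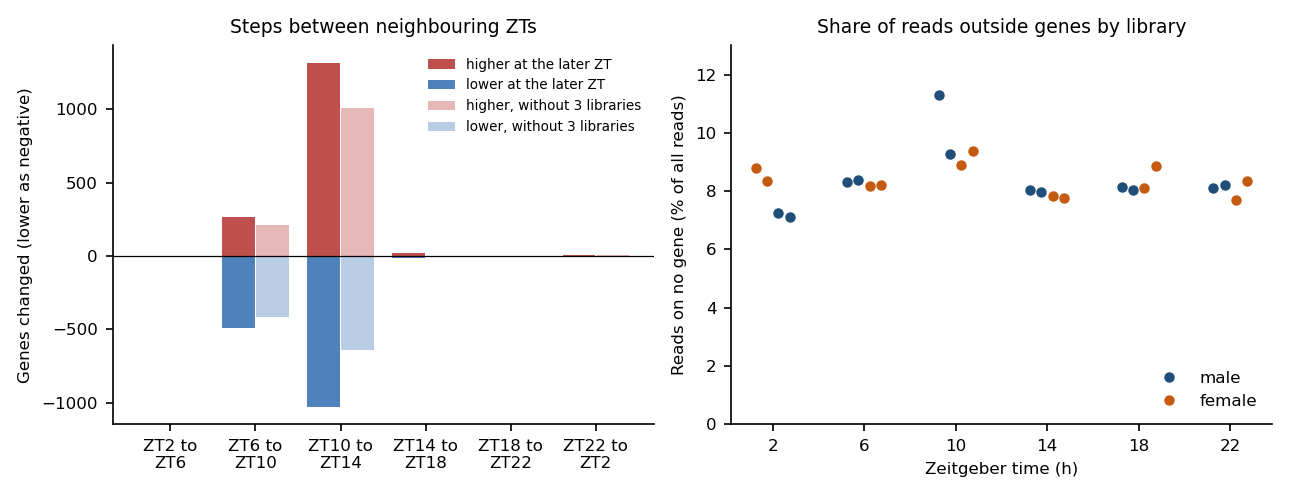
Left, number of genes that changed between neighbouring ZTs (adjusted p under 0.05; higher at the later ZT upward, lower downward), with all libraries (dark) and without 3 libraries (light): 757 genes into ZT 10 and 2348 out of it, and at most 31 in each other step. Right, percent of all reads of each library that fell on no gene, by Zeitgeber time (males blue, females orange), 8.90 to 11.3% at ZT 10 and at most 8.86% elsewhere.

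A second daily peak was looked for with a 12-hour cosine and sine beside the 24-hour terms, which 6 times a day sample at 3 points of the cycle. With all libraries 442 genes passed (2.84%), 15 of them also called at 24 hours. Tsc22d3 had the smallest p (adjusted p = 0.01), followed by Ripor1 and Synpo (adjusted p = 0.027 each). For Tsc22d3 the means were 85.1, 100, 82.2, 181, 77.5, and 50.1 CPM from ZT 2 to ZT 22. Without the library against its label 1 gene was left, and without the male replicate 1 at ZT 10 the count was 0. It was also 1 without the male replicate 3 at ZT 2, the male replicate 4 at ZT 2, or the female replicate 3 at ZT 14. Leaving out any other single library gave 10 to 963. By unadjusted p under 0.05 the count with all libraries was 3027, and DESeq2 called 1118.

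The sexes, 12 livers each, showed no gene with a different daily course after adjustment in edgeR (0 of 15548, 0%, with 945 at an unadjusted p under 0.05 and 24 called by DESeq2), and 13 genes were called without the library against its label. Ckm, Mb, and Rad51b came nearest (adjusted p = 0.089 each). For Ckm and Mb 1 library stood far above the rest. The male replicate 2 at ZT 14 held 29.2 CPM of Ckm and 13.9 CPM of Mb, and the other libraries at most 2.46 and 0.86 CPM. Dbp had an amplitude of 1.14 ± 0.22 in males and 1.47 ± 0.14 in females, and Nr1d1 of 1.30 ± 0.16 and 0.99 ± 0.15. Usp2 peaked at ZT 12 ± 0.7 h in males and ZT 9.3 ± 0.3 h in females, and its difference did not pass the test (adjusted p = 0.18).

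On NC, 675 genes were rhythmic in the livers labelled Hep-Bmal1KO (4.34%), and 101 were called on both diets, 16.9% of the cdHFD calls and 15.0% of the NC calls. Of the 101, 54 were called on cdHFD without the 3 libraries, and Cpa1, Prss2, and Pnlip, of the pancreas, were among the 101. For the 101 the median distance between the peaks was 2.17 hours, 48 peaked within 2 hours and 79 within 4 hours on both diets, and 19 had the larger amplitude on cdHFD. A call on 1 diet alone does not show a difference, and the difference itself, diet by time, was found for 141 genes (0.907%). None of the 19 core clock genes was among them. At each ZT the mice on NC had mouse numbers in another range and their libraries stood in other plate columns. Diet therefore cannot be told apart from cohort or plate column in this test. Nr1d1 had an amplitude of 1.14 ± 0.11 and a peak at ZT 6.2 ± 0.4 h on cdHFD and 1.35 ± 0.24 and ZT 8.4 ± 0.7 h on NC (adjusted p = 0.16 for diet by time), and Dbp 1.30 ± 0.13 and ZT 8 ± 0.4 h against 1.26 ± 0.31 and ZT 9.3 ± 0.9 h (adjusted p = 0.57).

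Among the genes with diet by time were metabolic ones. Egr1, an immediate early factor, had the smallest p (adjusted p = 0.0063), with an amplitude of 0.15 ± 0.12 on cdHFD and 1.32 ± 0.34 at ZT 5.1 ± 1 h on NC. Zbtb11os1, an antisense transcript of Zbtb11 whose reads the counting may not separate from that gene, peaked at ZT 1.4 ± 0.7 h on cdHFD and ZT 11.5 ± 1.2 h on NC (adjusted p = 0.0073). Fh1, fumarate hydratase, had an amplitude of 0.30 ± 0.05 and 0.30 ± 0.07 on the respective diets but peaked at ZT 14.4 ± 0.6 h and ZT 22.5 ± 1 h (adjusted p = 0.0077). Acly and Acacb, of fat synthesis, peaked at ZT 16 ± 0.9 h and ZT 14.7 ± 0.6 h on cdHFD against ZT 23.9 ± 0.9 h and ZT 1.5 ± 1.6 h on NC (adjusted p = 0.011 and 0.016), and Gclc at ZT 23.4 ± 1 h against ZT 8 ± 1 h (adjusted p = 0.011). The 141 shrank to between 3 and 17 when any 1 of the 4 replicate numbers was left out, which removes 12 of the 48 libraries, and was 183 without the 3 libraries of these groups that went against their label (1 on cdHFD and 2 on NC).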

How the data were processed

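RNA from 96 livers was sequenced by BRB-seq (3′ mRNA, barcoded per sample); the authors demultiplexed the reads, aligned them with STAR to mm10, and deposited raw counts per gene from HTSeq (featureCounts is also named). Whether molecular identifiers were collapsed, the software versions, and the strand setting are not given in the sources used here. Groups came from the sample labels.

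Of 55487 genes listed, the 15548 whose counts summed to 100 or more across all 96 libraries were tested. Counts of the 24 libraries were scaled by TMM and tested in edgeR 4.0.16 (R 4.3.3) with its quasi-likelihood F test of cosine and sine terms (24 hours), with Benjamini-Hochberg adjustment over all genes tested. The 12-hour terms, sex by time, diet by time, and steps between neighbouring ZTs used the same test. Amplitude and peak time came from a least-squares cosine on values stabilized by DESeq2 1.42.0. The rhythm tests and the cosine fit were checked on simulated data. Genes named by a written rule were the core clock, the 15 with the smallest p, the 5 largest amplitudes, up to 4 of each list, and the leading genes of each test, step, and 4-hour bin; the other list members named were chosen after their values were seen. The gene lists and the comparisons were chosen with earlier results of these data known. Libraries with pancreatic RNA were those over 10 CPM for 3 genes. Some list members are counted but not reported here by name. Read depth limits genes near 1 CPM.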

Additional observations from a re-analysis of the deposited data

Results flagged for a closer look

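Of the 258 groups of 4 libraries examined, 23 held 1 library that stood apart from the other 3 by Dixon's ratio, and chance marks about 1 group in 20. For each, the value of that library is given, with the range of the other 3 where it is not 0. No explanation was tested.

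Among clock genes, the male replicate 1 at ZT 10 had 10.7 CPM of Per2 (others 21.8 to 22.4), the female replicate 4 at ZT 10 had 15.2 CPM of Per3 (others 9.45 to 10.3) and 70.6 CPM of Dbp (others 65.8 to 66.4), and the male replicate 2 at ZT 22 had 1.78 CPM of Ciart (others 0.116 to 0.210). The library against its label, at ZT 14, had 22.8 CPM of Hlf (others 14.4 to 14.9). For Bhlhe40 the female replicate 2 at ZT 2 stood at 32.7 CPM (others 21.0 to 22.6) and the female replicate 4 at ZT 6 at 38.9 CPM (others 29.1 to 30.3). Coq10b was at 33.9 CPM in the female replicate 3 at ZT 10 (others 45.3 to 46.8), and Amdhd1 at 181 CPM in the male replicate 4 at ZT 2 (others 147 to 149).

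Pancreatic genes gave 9 of the 23, each a library with a few counts beside 3 at 0 CPM. Cpa1 had 0.615 CPM in the female replicate 2 at ZT 2, 0.133 CPM in the male replicate 1 at ZT 6, 0.167 CPM in the male replicate 2 at ZT 14, and 0.578 CPM in the female replicate 4 at ZT 22. Sycn had 0.266 CPM in the male replicate 1 at ZT 6, 0.152 CPM in the male replicate 1 at ZT 10, and 0.167 CPM in the male replicate 2 at ZT 14. Zg16 had 0.152 CPM in the male replicate 1 at ZT 10, and 2210010C04Rik 0.123 CPM in the female replicate 2 at ZT 2.

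Summed stellate cell markers were 310 CPM in the male replicate 2 at ZT 22 (others 298 to 300), summed cholangiocyte markers 563 CPM in the male replicate 1 at ZT 22 (others 250 to 295), and summed B or plasma cell markers 13.1 CPM in the male replicate 2 at ZT 10 (others 17.4 to 17.7). Total counts were 5990000 in the male replicate 1 at ZT 10 (others 7830000 to 7940000) and 4240000 in the male replicate 2 at ZT 22 (others 7920000 to 8660000).

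The daily course differed between the libraries labelled cdHFD and NC in 141 genes by edgeR's quasi-likelihood test of diet by time. Diet and cohort cannot be told apart in it. The smallest adjusted p were 0.0063 for Egr1, 0.0073 for Zbtb11os1, and 0.0077 for Fh1.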

How the results depend on the processing

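The number of rhythmic genes, 596 in the fit reported, was 112 by JTK_CYCLE alone, 369 by an F test of the cosine on stabilized values, 1030 by DESeq2, 2068 with ZT as a factor in place of the cosine, 1531 at an unadjusted p under 0.01 in JTK_CYCLE, the cosine F test, or edgeR (a stand-in for the study's rule, which used 4 programs), 189 at an adjusted p under 0.01, 384 with all 96 libraries in the fit, 210 in males alone, 130 in females alone, and 325 without the library against its label and the 2 with pancreatic RNA (a setting chosen after seeing the data). It ranged from 420 to 685 when 1 library was left out, and was 496 after thinning every library to the lowest total.

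The 442 genes with a 12-hour component became 1118 by DESeq2, 797 with no filter, 1 without the library against its label, 184 without the 2 with pancreatic RNA, 1 without all 3, and 0 to 963 without 1 library. Sex by time (0 genes) gave 24 by DESeq2, 245 with no filter, 13 without the library against its label, 4 without the 2 with pancreatic RNA, 11 without all 3, and 0 to 13 without 1 library. Diet by time (141 genes) gave 346 by DESeq2, 226 with no filter, 223 with sex in the model, and 3 to 17 without 1 replicate number.

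From ZT 2 to ZT 6 the count of 0 became 11 by DESeq2, 16 with no filter, and 0 to 2 without 1 library. It ranged from 261 to 876 for ZT 6 to ZT 10 and from 1315 to 2513 for ZT 10 to ZT 14, both lowest without the male replicate 1 at ZT 10. From ZT 14 to ZT 18 the 31 became 50 by DESeq2, 8 with at least 10 counts in 4 libraries, 94 with no filter, 2 without the library against its label, 0 without the 2 with pancreatic RNA, 0 without all 3, and 1 to 34 without 1 library. From ZT 18 to ZT 22 the 9 became 1 by DESeq2, 0 with the stricter filter, 46 with no filter, 0 without the 2 with pancreatic RNA or all 3, and 0 to 15 without 1 library. From ZT 22 to ZT 2 the 17 became 283 by DESeq2, 99 with no filter, 32 with sex in the model, 10 without the 3 libraries, and 4 to 57 without 1 library. The cause of these shifts was not tested.

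Among the genes named, the fitted peak moved to the other side of the day for Cidea (amplitude 0.10) and Ckm (0.59) in females alone, for Nqo1 (0.15) with the straight line in the model, and for Prss2 without the 2 libraries with pancreatic RNA (0.07) or all 3 (0.06). No paired analysis was possible because the replicate numbers only count mice within a time and each mouse was sampled once. Counting error limits genes near 1 CPM, and with 4 mice at each of 6 times the timing rests on a grid of 4 hours.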

Other observations

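Some rhythmic genes outside the lists, which lead their 4 hours of the day by p, have not been given values above. Nnmt, nicotinamide N-methyltransferase, moved between 14.2 ± 4.18 CPM at ZT 2 and 48.5 ± 16.9 CPM at ZT 14 (amplitude 0.90 ± 0.16, peak ZT 13.7 ± 0.7 h, adjusted p = 5e-04 by edgeR). Abhd6, a monoacylglycerol lipase, had an amplitude of 0.52 ± 0.08 (peak ZT 12.7 ± 0.6 h, adjusted p = 0.00052). Late in the night Abhd17c, a depalmitoylase, peaked at ZT 23.2 ± 0.4 h (amplitude 0.37 ± 0.04, adjusted p = 0.00011) and the linker histone gene H1f2 at ZT 20.3 ± 0.6 h (amplitude 0.53 ± 0.08, adjusted p = 0.00027).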
